A study of Mus musculus with 8 samples.

Results

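A set of 41 genes encoding the actin cytoskeleton and focal adhesions, 40 of them measured among 22180 genes in all, was followed in mouse hepatic stellate cells. The set was drawn up by name: actins, actin crosslinkers, proteins of adhesion plaques, LIM domain proteins, tropomyosins, nonmuscle myosins and calponins, factors of actin turnover, and SRF. It was chosen with earlier results of these data known, so its counts are not an independent test. Each gene was read from the probe set that carried its symbol alone and had the highest mean over all arrays. Ilk, the kinase that joins parvin to integrins, has no value here, because each of its 3 probe sets lists 2 gene symbols. The mean levels of the 40 genes ran from 6.45 to 11.84 log2 units, above the 95th percentile of 4.76 of 1390 olfactory and vomeronasal receptor genes, which served as a guide to background.

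In the liver, stellate cells are pericytes that store vitamin A, and they turn into contractile, matrix-producing cells after injury or on a stiff surface. The 4 groups, with 2 Affymetrix arrays each and 8 in all, were primary stellate cells of BALB/c mice, an inbred strain. Quiescent cells, from healthy livers, were used unseeded, at 0 hours. Cultured cells had spent 10 days on plastic dishes. In vivo activated cells, also unseeded, came from mice treated with carbon tetrachloride (CCl4), a hepatotoxin that causes fibrosis, for 2 weeks or 4 weeks. A treatment protocol given for all 8 samples names valproic acid at 2.5 mM, started after seeding. The sources used here do not settle whether it was given to the cultured cells, so culture and valproic acid cannot be told apart. The labels give no age and no sex, and do not say whether replicate arrays stem from separate mice or cultures. P-values therefore cover only the spread between the arrays at hand, which may be technical. The study concerned the part of YAP, the coactivator that Hippo signalling restrains, in stellate cell activation.

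Actin filaments are built from monomers with the help of nucleating, capping and severing proteins, are bundled by crosslinkers such as alpha-actinins and filamins, and are pulled by nonmuscle myosin. They end in focal adhesions, plaques of talin, vinculin, zyxin and other proteins that tie integrins to the filaments. When monomeric actin is used up, the cofactors MRTF-A and MRTF-B enter the nucleus and act with SRF on genes that carry a CArG box, many of them cytoskeletal, and YAP is likewise responsive to actin tension and acts through TEAD factors.

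The marker genes of stellate cells were high in freshly isolated cells, and 10 of 12 were lower in culture than in quiescent cells, against 5 at 2 weeks and 6 at 4 weeks of CCl4. Lrat, which esterifies retinol, stood at 10.95 and 11.29 log2 units on the quiescent arrays, between 10.95 and 11.11 on the 4 CCl4 arrays, and at 7.21 and 5.74 in culture. Transcripts of other liver cells were also present. The median level of 12 hepatocyte markers was 9.18 and 7.81 on the quiescent arrays, 6.56 and 7.61 after 2 weeks of CCl4, 6.20 and 5.99 after 4 weeks and 4.73 and 4.95 in culture. The 12 sinusoidal endothelial markers stood at 9.63 and 8.78, 7.42 and 7.79, 6.53 and 7.11, and 5.45 and 5.0 in the same order. Alb, the albumin gene, was at 4.42 and 4.17 in culture, below the 95th percentile of the receptor genes, against 11.90 and 11.63 in quiescent cells.

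The actin and adhesion genes were mostly lowest in quiescent cells and mostly highest in culture. The group mean was lowest in quiescent cells for 32 of 40 genes and highest in culture for 27, after 4 weeks of CCl4 for 11, after 2 weeks for 1 and in quiescent cells for 1. For 20 genes the means stood in the order quiescent, 2 weeks, 4 weeks, culture. These orders were not counted over all genes, so the counts alone do not set these genes apart. Quiescent replicate 1 was below quiescent replicate 2 for 37 of the 40 genes, by a median of 0.42 log2 units, whereas 56.1% of all genes were lower on that array, by a median of 0.04. The 2 quiescent arrays differed by more than 1 log2 unit for 4 of the genes, with a largest gap of 1.92 for Cnn2, while the median gap was 0.08 in culture, 0.12 at 2 weeks and 0.14 at 4 weeks. Quiescent replicate 1 was also the array with the higher hepatocyte and sinusoidal endothelial marker levels. Leaving out quiescent replicate 2 therefore moves the changes of those 37 genes up and leaves a lone quiescent array with no spread of its own. A call gained in such a fit is no separate evidence of a rise.

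**Figure D1:**
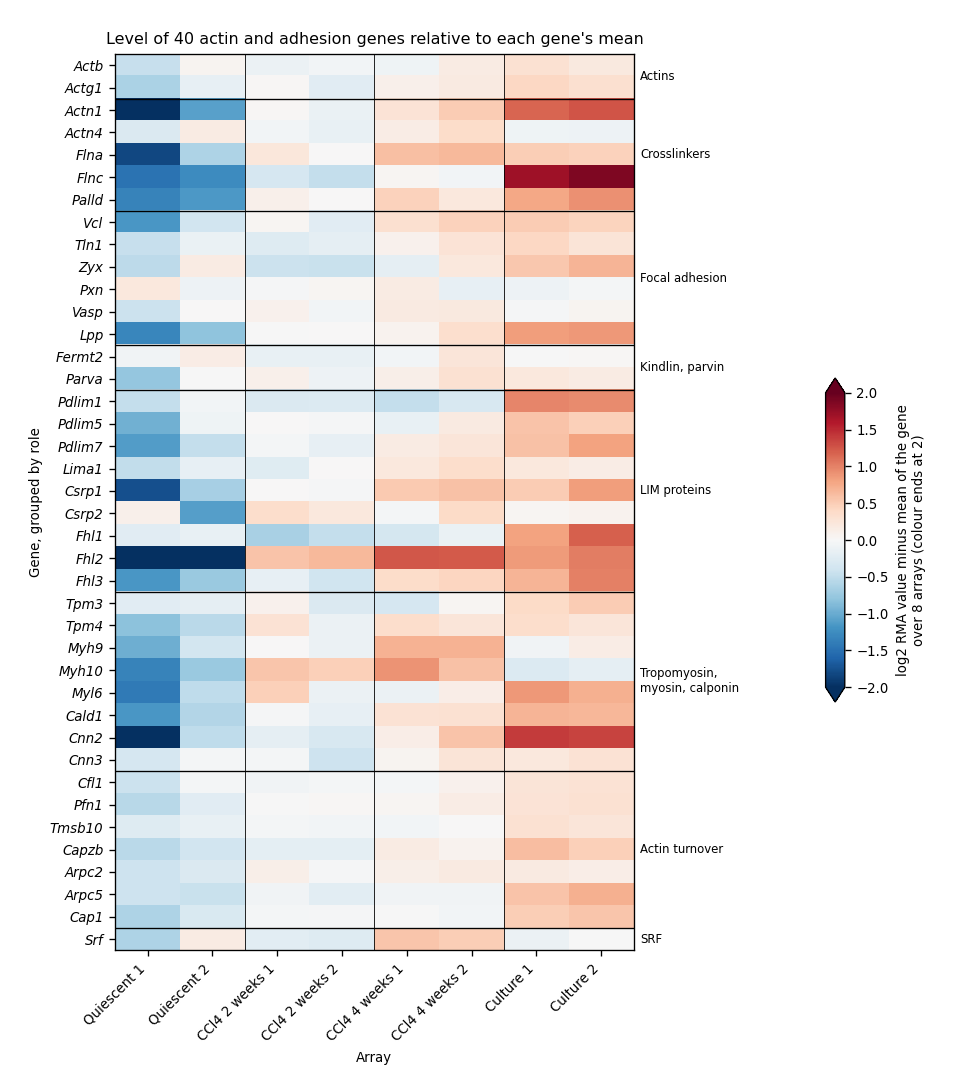
Level of the 40 genes on each of the 8 arrays, as the log2 RMA value minus that gene's mean over all arrays (colour scale, ending at 2 log2 units), with genes in rows grouped by role. The 2 quiescent columns are mostly blue and the 2 culture columns mostly red, and quiescent replicate 1 is lower than replicate 2 for 37 of 40 genes.

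In culture, 30 of the 40 genes rose against quiescent cells and 0 fell (limma, Benjamini-Hochberg adjusted p under 0.05), where 12.9% of all genes rose and 10.3% fell. All genes include many dim ones, which the set does not. When only the 11410 genes with a mean of at least 5 log2 units were tested, 2675 of them rose and 2185 fell. The median change of the 40 genes was 0.89 on the log2 scale, against 0.01 for all genes. Both culture arrays were above both quiescent arrays for 34 genes, which held for 31.2% of all genes, and below them for 0, which held for 27% of all genes. At an unadjusted p under 0.05, 34 genes were higher and 0 lower, where 4019 of all 22180 genes were higher and 3304 lower. The count depended on the scale. Centring each array on the mean of 10 reference genes moved the median of all genes by -0.47. It left 19 genes higher and 3 lower (1354 and 11952 of all genes). The 3 lower were Actn4 at -0.52, Pxn at -0.61 and Fermt2 at -0.51, all close to that shift. With 1 array left out, the median change ran from 0.72 (without quiescent replicate 1) to 1.09 (without quiescent replicate 2). Fewer genes were called in most of these fits, in the set and over all genes. In bulk RNA, more cells of a type and more RNA per cell cannot be told apart.

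After CCl4 the same direction was seen in fewer genes. At 2 weeks, 7 of 40 genes rose and 0 fell, where 2.34% of all genes rose and 2.43% fell, and the median change was 0.40 against 0.00 for all genes. At 4 weeks, 15 rose and 0 fell, where 4.04% of all genes rose and 4.67% fell, and the median change was 0.59 against -0.00. Of the 11410 genes with a mean of at least 5, tested alone, 605 rose and 611 fell at 2 weeks. At 4 weeks 986 of them rose and 1075 fell. At an unadjusted p under 0.05, 20 genes were higher and 0 lower at 2 weeks, where 1760 of all genes were higher and 1993 lower. At 4 weeks 27 were higher and 0 lower, where 2107 of all genes were higher and 2459 lower. The counts rested on single arrays: without quiescent replicate 2 they were 18 at 2 weeks and 23 at 4 weeks, without CCl4 2-week replicate 1 the first fell to 2, and without either 4-week array the second fell to 8. Both CCl4 arrays lay above both quiescent arrays for 24 genes at 2 weeks (22% of all genes) and for 29 at 4 weeks (24% of all genes). They lay below both for 2 genes at 2 weeks (21.6% of all genes) and for 0 at 4 weeks (24.7% of all genes).

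Every gene that rose after CCl4 also rose in culture. The 7 genes called in culture and at both CCl4 times were Actn1, Flnc, Palld, Lpp, Fhl2, Tpm4 and Myh10. The 8 called in culture and at 4 weeks were Flna, Vcl, Pdlim7, Csrp1, Fhl3, Myh9, Cald1 and Capzb. A further 15 were called against quiescent cells in culture alone, and for 6 of these (Zyx, Pdlim1, Fhl1, Tpm3, Arpc5 and Cap1) the difference between culture and CCl4 itself passed the test. These comparisons share the quiescent arrays, so their agreement is not independent. The hepatocyte markers moved the other way, with 10 of 12 lower in culture, 5 at 2 weeks and 10 at 4 weeks, as did the sinusoidal endothelial markers with 12, 8 and 10 of 12 lower and the macrophage markers with 11, 1 and 10 of 12 lower, though 1 was higher at 2 weeks. The part of these cells in the rises was not tested.

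**Figure D2:**
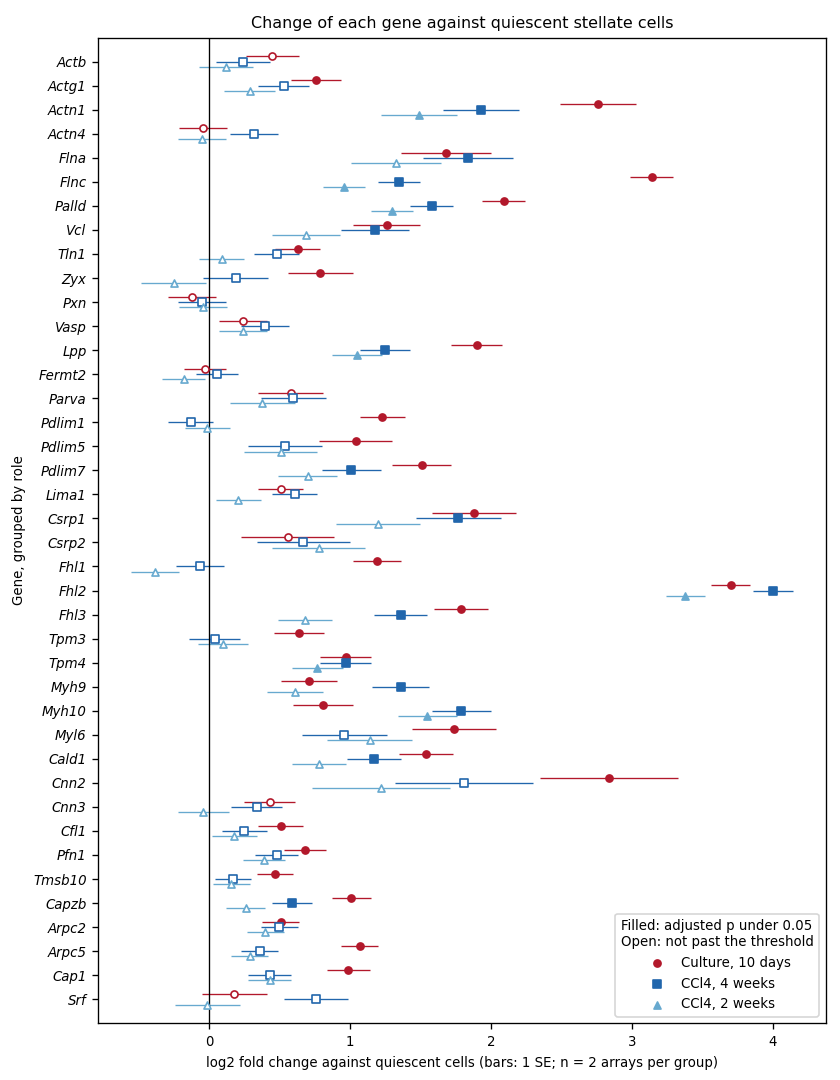
Change of each of the 40 genes against quiescent cells (x axis, log2 fold change, bars 1 SE, 2 arrays per group) in culture (circles), after 4 weeks of CCl4 (squares) and after 2 weeks (triangles), filled where the adjusted p was under 0.05. Fhl2 stands furthest right in all 3 comparisons, and none of the filled points lies below 0; with arrays centred on reference genes, Actn4, Pxn and Fermt2 were lower in culture.

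SRF is the transcription factor on which many of these genes depend. Srf itself stood at 7.90 and 8.68 log2 units on the quiescent arrays, 8.31 and 8.26 at 2 weeks, 9.08 and 9.02 at 4 weeks and 8.41 and 8.52 in culture. Its 4-week arrays were the highest, yet the difference from quiescent cells, 0.76 ± 0.23 (SE, n = 2), did not pass (adjusted p = 0.0782), and passed only without quiescent replicate 2 (adjusted p = 0.00315). In culture the difference was 0.18 ± 0.23, with a 95% interval of -0.34 to 0.69, and it passed only without quiescent replicate 2 (adjusted p = 0.0408). The cofactors of SRF differed from one another. Mrtfa, encoding MRTF-A, stood at 6.54 and 6.89 when quiescent, between 6.80 and 7.06 on the CCl4 arrays, and at 8.32 and 8.44 in culture, a rise of 1.67 ± 0.16 (adjusted p = 0.000128). Its level in culture exceeded that after CCl4 by 1.49 ± 0.14 (adjusted p = 0.00012). Mrtfb rose at 4 weeks by 0.57 ± 0.13 (adjusted p = 0.0324), from 7.72 and 7.60 to 8.26 and 8.20, and was lower in culture than after CCl4 by 0.62 (log2 difference -0.62 ± 0.12, adjusted p = 0.00465). Of the ternary complex factors, which bind SRF in response to growth signals, Elk4 fell by 0.58 in culture (adjusted p = 0.0204), Elk1 was higher in culture than after CCl4 by 0.41 (adjusted p = 0.0482), and Elk3 passed in none of the comparisons. Myocd, the cofactor of cardiac and smooth muscle, lay between 4.23 and 4.58 on all arrays, at the level of the receptor genes.

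RefSeq start sites were available for 37 of the 41 genes, with 51 promoters of 300 bases (250 before the start and 50 after, assembly GRCm38.p6). A CArG box on either strand, the motif bound by SRF, was found in 10 of the 51 promoters, or 19.6%, against 1.63% of 32851 promoters in the table and 5.15% of the promoters of other actin and adhesion genes. By gene, 9 of 37 held it, or 24.3%, against 1.81% of all genes: Actg1, Cnn2, Fermt2, Fhl1, Fhl2, Lima1, Myl6, Srf and Vcl. The stretches below show it for Fhl2, which had the largest changes and a box in 2 promoters, for Cnn2, Actg1 and Vcl, and for Srf itself, with the box in capitals.
Fhl2, chr1:43163962-43164017, minus strand: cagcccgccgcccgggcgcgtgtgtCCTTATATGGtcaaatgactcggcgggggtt
Fhl2, chr1:43196823-43196882, minus strand: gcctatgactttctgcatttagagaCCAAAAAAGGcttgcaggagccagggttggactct
Cnn2, chr10:79988519-79988578, plus strand: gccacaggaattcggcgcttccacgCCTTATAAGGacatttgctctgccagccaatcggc
Actg1, chr11:120348551-120348610, minus strand: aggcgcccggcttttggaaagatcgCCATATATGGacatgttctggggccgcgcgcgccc
Vcl, chr14:20929148-20929205, plus strand: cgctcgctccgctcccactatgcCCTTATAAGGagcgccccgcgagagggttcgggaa
Srf, chr17:46556190-46556269, minus strand: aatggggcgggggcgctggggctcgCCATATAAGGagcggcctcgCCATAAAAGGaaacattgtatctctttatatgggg

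The CArG boxes began 31 and 96 bases before the start in the 2 Fhl2 promoters, 56 before it in Cnn2, 90 in Actg1 and 227 in Vcl, and at 82 and 62 in Srf. The changes of genes with and without a box are given side by side. In culture 6 of the 9 with a box rose (median change 1.19), and 24 of the 27 measured genes with a promoter and no box rose (median 0.99). At 4 weeks of CCl4 the counts were 2 of 9 and 13 of 27, with medians of 0.76 and 0.54, and at 2 weeks 1 of 9 and 6 of 27, with medians of 0.29 and 0.43. Culture was higher than CCl4 for 1 of 9 genes with a box and 13 of 27 without, with median differences of 0.33 and 0.51, and no test compared these groups. The letters GGAATG or CATTCC, the core bound by TEAD factors on either strand, were found in 11 of the 51 promoters, or 21.6%, against 14.7% of all promoters, and Vcl alone held both motifs. By gene, 10 of 37 held them, or 27%, against 16.6% of all genes: Actn4, Arpc2, Cald1, Flna, Flnc, Lpp, Myh10, Palld, Pfn1 and Vcl. Of these, in the setting as reported, Actn4 passed in none of the comparisons, and Arpc2 and Pfn1 passed at neither CCl4 time. No test compared genes with and without these letters. The letters are shown in capitals for 3 of the genes that rose in culture and at both CCl4 times.
Flnc, chr6:29433137-29433172, plus strand: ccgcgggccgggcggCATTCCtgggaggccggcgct
Palld, chr8:61760156-61760191, minus strand: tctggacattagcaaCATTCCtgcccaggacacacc
Lpp, chr16:24721658-24721693, plus strand: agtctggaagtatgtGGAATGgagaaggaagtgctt
A match describes the letters in this window and was not tied to binding in these cells.

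Of the cytoplasmic actins, the monomers of the filaments, Actg1 rose in culture and Actb did not pass. Actg1, gamma-actin, stood at 11.21 and 11.68 when quiescent, 11.87 and 11.61 at 2 weeks, 11.95 and 12.02 at 4 weeks and 12.25 and 12.16 in culture. Its culture arrays lay above all others, by 0.76 ± 0.18 over quiescent cells (adjusted p = 0.0154). This call failed without quiescent replicate 1 (adjusted p = 0.085) or with culture replicate 1 removed (0.0833) or culture replicate 2 (0.0598), and with arrays centred on reference genes (0.27, adjusted p = 0.225). At 4 weeks the difference was 0.53 ± 0.18 (adjusted p = 0.122), which passed without quiescent replicate 2 (adjusted p = 0.0317). Actg1 has 6 probe sets, and the other 5 differed in culture by 0.66, 1.98, 1.64, 1.64 and -0.07, so its size is uncertain. Actb, beta-actin, stood at 9.27 and 9.79, 9.62 and 9.68, 9.64 and 9.90, and 10.03 and 9.93 in the same order of groups. Its change in culture was 0.45 ± 0.19 with a 95% interval of 0.02 to 0.88 (adjusted p = 0.133), and it passed without quiescent replicate 2 (adjusted p = 0.0228).

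Of the crosslinkers that bundle and brace filaments, 4 of 5 rose in culture, 3 at 2 weeks and 4 at 4 weeks, with median changes of 2.09, 1.30 and 1.58. Flnc, filamin C, known mainly from muscle, stood at 4.97 and 5.20 log2 units when quiescent, 6.12 and 5.98 at 2 weeks, 6.49 and 6.39 at 4 weeks and 8.14 and 8.32 in culture. These 4 groups did not overlap, and the rise was 3.14 ± 0.15 in culture, or 8.84-fold (adjusted p = 2.41e-06), against 0.96 ± 0.15 at 2 weeks (adjusted p = 0.00922) and 1.35 ± 0.15 at 4 weeks (adjusted p = 0.00108). Actn1, alpha-actinin 1, stood at 8.06 and 8.99, 10.10 and 9.93, 10.34 and 10.57, and 11.24 and 11.32. It rose by 2.76 ± 0.27 in culture, or 6.75-fold (adjusted p = 0.000112), by 1.49 ± 0.27 at 2 weeks (adjusted p = 0.0164) and by 1.93 ± 0.27 at 4 weeks (adjusted p = 0.00311). Palld, palladin, an actin-bundling scaffold of stress fibres, stood at 6.28 and 6.48, 7.73 and 7.63, 8.09 and 7.84, and 8.39 and 8.54. Its rises were 2.09 ± 0.15 (adjusted p = 2.34e-05) in culture, 1.30 ± 0.15 (adjusted p = 0.00278) at 2 weeks and 1.58 ± 0.15 (adjusted p = 0.000604) at 4 weeks.

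Flna, filamin A, which links filaments into networks and to membranes, had its highest arrays after 4 weeks of CCl4. It stood at 8.35 and 9.55 when quiescent, 10.39 and 10.17 at 2 weeks, 10.77 and 10.81 at 4 weeks and 10.65 and 10.63 in culture. It rose by 1.68 ± 0.32 in culture (adjusted p = 0.00469) and by 1.84 ± 0.32 at 4 weeks (adjusted p = 0.00895). The 2-week change of 1.33 ± 0.32 missed the threshold (adjusted p = 0.0511). It passed with arrays centred on their median (0.0431) or among genes with a mean of at least 5 (0.0336), but not with quantile or reference scaling. Its 4-week call was lost without 4-week replicate 1 (adjusted p = 0.0722) or replicate 2 (0.0695). The 2-week calls of the group also rested on single arrays: Actn1 was lost without 2-week replicate 1 (0.133) or replicate 2 (0.0718), and Flnc without 2-week replicate 1 (0.0814). Actn4, the other nonmuscle alpha-actinin, passed in none of the comparisons, at 10.21 and 10.66, 10.44 and 10.34, 10.65 and 10.86, and 10.41 and 10.39, with a change in culture of -0.04 and a 95% interval of -0.43 to 0.36. With arrays centred on reference genes it was lower in culture by 0.52 (log2 change -0.52, adjusted p = 0.0328).

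**Figure D3:**
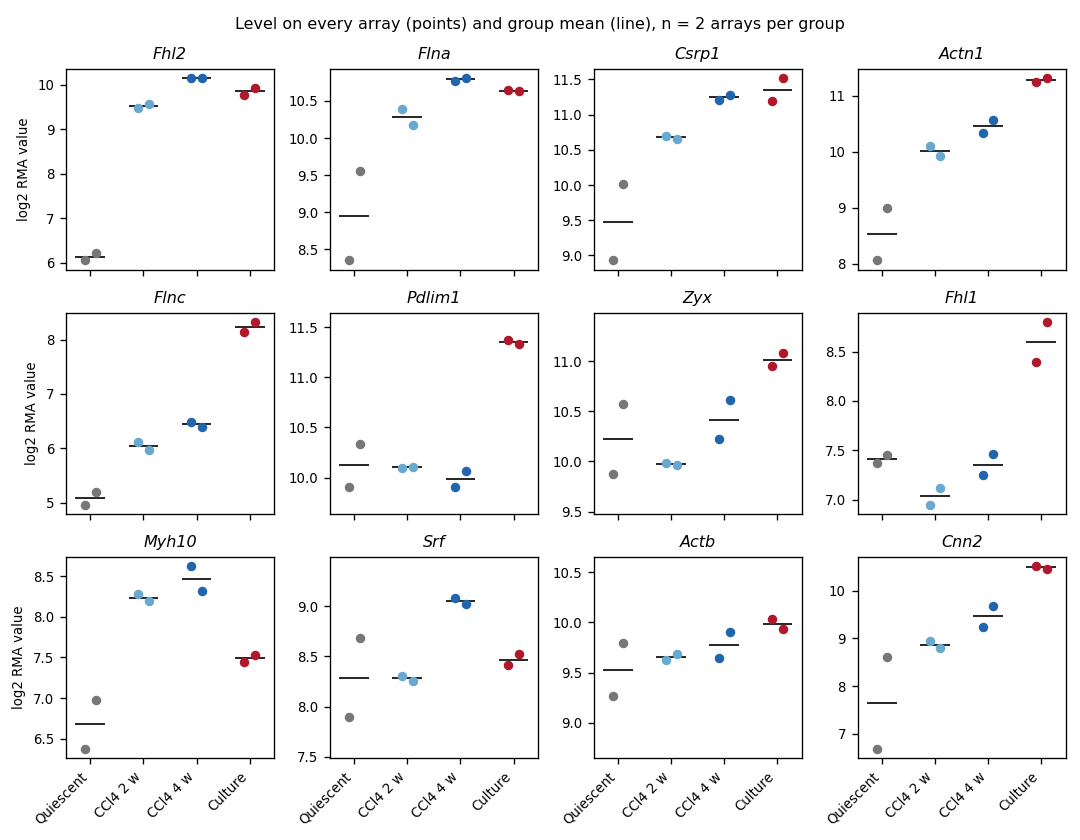
Level of 12 of the genes on every array (points, log2 RMA value) with the group mean (line), 2 arrays per group, from quiescent cells through 2 and 4 weeks of CCl4 to culture, with a y axis of its own for each gene. Flnc, Pdlim1 and Fhl1 are highest in culture, Myh10 and Srf are highest after 4 weeks of CCl4, and the quiescent points of Flna, Csrp1 and Cnn2 lie more than 1 log2 unit apart.

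Of the 6 adhesion plaque proteins, 4 rose in culture, 1 at 2 weeks and 2 at 4 weeks. Lpp, a zyxin relative that shuttles between adhesions and the nucleus, stood at 8.49 and 8.98 when quiescent, 9.78 and 9.80 at 2 weeks, 9.85 and 10.12 at 4 weeks and 10.63 and 10.65 in culture. It rose by 1.90 ± 0.18 in culture (adjusted p = 0.000112), by 1.05 ± 0.18 at 2 weeks (adjusted p = 0.0149) and by 1.25 ± 0.18 at 4 weeks (adjusted p = 0.00412). The 2-week call was lost without 2-week replicate 1 (adjusted p = 0.104) or replicate 2 (0.0765), and both CCl4 calls were lost when a second, dim probe set was averaged in (0.101 and 0.0648). Vcl, vinculin, which strengthens the link from talin to actin under load, stood at 9.52 and 10.30, 10.73 and 10.47, 11.01 and 11.15, and 11.20 and 11.14. Its rise was 1.26 ± 0.24 in culture (adjusted p = 0.00441), against 1.18 ± 0.24 at 4 weeks (adjusted p = 0.0174). The 4-week call was lost without 4-week replicate 1 (0.0922) or replicate 2 (0.119), and the 2-week change of 0.69 passed without quiescent replicate 2 (0.00989).

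Zyx and Tln1 rose in culture but passed at neither CCl4 time. Zyx, zyxin, which gathers at strained stress fibres, stood at 9.88 and 10.57 when quiescent, 9.98 and 9.96 at 2 weeks, 10.22 and 10.61 at 4 weeks and 10.95 and 11.08 in culture. Only the culture arrays lay clear of the quiescent ones, by 0.79 ± 0.23 (adjusted p = 0.0351), and the differences at 2 and 4 weeks were -0.25 and 0.19. In culture, the call failed without quiescent replicate 1 (adjusted p = 0.18), with culture replicate 1 (0.0966) or 2 (0.162) removed, or without either 2-week array (0.0586), and with arrays centred on reference genes (0.258). Tln1, talin 1, which activates integrins, rose by 0.63 ± 0.16 in culture (adjusted p = 0.0189), from 8.66 and 8.99 to 9.53 and 9.38. That call was lost without quiescent replicate 1 (0.109), culture replicate 1 (0.111) or 2 (0.0539), and with reference centring (0.427).

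Pxn and Vasp did not pass in any comparison. Pxn, paxillin, an adhesion scaffold, lay between 7.17 and 7.54 on all 8 arrays, with a change in culture of -0.12 (95% interval -0.50 to 0.26), but was lower in culture with reference centring (log2 change -0.61, adjusted p = 0.0152). Vasp, which speeds filament growth, lay between 7.33 and 7.96, with a change in culture of 0.24 (95% interval -0.14 to 0.62). Fermt2, kindlin-2, an integrin activator, lay between 9.59 and 9.98, with a change in culture of -0.03 (95% interval -0.38 to 0.32; with reference centring -0.51, adjusted p = 0.0222). Parva, alpha-parvin, stood at 9.87 and 10.64 in quiescent cells and between 10.54 and 10.95 on the other arrays. Without quiescent replicate 2 its adjusted p was 0.00522 in culture, 0.0416 at 2 weeks and 0.0106 at 4 weeks, all past the threshold, while with all arrays the adjusted p was 0.118, 0.481 and 0.179.

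Among the 9 LIM domain proteins, 7 rose in culture, 1 at 2 weeks and 4 at 4 weeks. Fhl2, a coactivator and integrin-binding protein of adhesions, changed more than any other gene of the set against quiescent cells. It stood at 6.05 and 6.22 log2 units when quiescent, 9.48 and 9.56 at 2 weeks, 10.15 and 10.14 at 4 weeks and 9.76 and 9.93 in culture. Its rise was 3.70 ± 0.14 in culture, or 13.0-fold (adjusted p = 5.67e-07), 3.38 ± 0.14 at 2 weeks, or 10.4-fold (adjusted p = 1.38e-05), and 4.00 ± 0.14 at 4 weeks, or 16.0-fold (adjusted p = 1.25e-05). No array left out removed any of these calls. Its relatives differed from it. Fhl3 stood at 7.03 and 7.45, 8.04 and 7.80, 8.56 and 8.63, and 8.87 and 9.20, and rose by 1.79 ± 0.19 in culture (adjusted p = 0.000185) and by 1.36 ± 0.19 at 4 weeks (adjusted p = 0.00331). At 2 weeks its difference of 0.68 passed only without quiescent replicate 2 (adjusted p = 0.0349). Fhl1 stood at 7.37 and 7.45, 6.95 and 7.12, 7.25 and 7.46, and 8.40 and 8.80, so its 2-week arrays were the lowest (log2 difference -0.38, adjusted p = 0.313) and its culture arrays the highest, by 1.19 ± 0.17 (adjusted p = 0.00114).

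Csrp1, a partner of alpha-actinin and zyxin, stood at 8.93 and 10.02 when quiescent, 10.69 and 10.66 at 2 weeks, 11.21 and 11.28 at 4 weeks and 11.19 and 11.52 in culture. It rose by 1.88 ± 0.30 in culture (adjusted p = 0.00189) and by 1.77 ± 0.30 at 4 weeks (adjusted p = 0.008). Its 2-week change of 1.20 ± 0.30 had an adjusted p of 0.0589. At 2 weeks it passed with arrays centred on their median (0.0494) or a minimum mean of 5 (0.0387), but not with quantile or reference scaling. The 4-week call was lost without 4-week replicate 1 (0.0645) or 2 (0.0671). Csrp2 was 1 of 3 genes, with Pxn and Arpc5, whose quiescent replicate 1 was above replicate 2, at 8.58 and 7.38, and between 8.45 and 8.86 elsewhere. It passed in none of the comparisons with all arrays, but without quiescent replicate 1 all 3 changes passed, with an adjusted p of 0.00473 in culture, 0.0102 at 2 weeks and 0.00882 at 4 weeks.

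The 3 PDZ-LIM genes of the set, whose proteins sit on alpha-actinin, rose in culture, and Pdlim7 rose at 4 weeks of CCl4 as well. Pdlim1 stood at 9.91 and 10.33 when quiescent, 10.10 and 10.11 at 2 weeks, 9.91 and 10.07 at 4 weeks and 11.37 and 11.33 in culture. Its differences at 2 and 4 weeks were -0.01 and -0.13, and both culture arrays lay above all others, by 1.23 ± 0.16 over quiescent cells (adjusted p = 0.000749). Pdlim7 rose by 1.51 ± 0.21 in culture (adjusted p = 0.00087) and by 1.01 ± 0.21 at 4 weeks (adjusted p = 0.0196), from 7.65 and 8.29 to 9.36 and 9.58 and to 8.94 and 9.01. The 4-week call failed without quiescent replicate 1 (adjusted p = 0.0605) or 4-week replicate 1 (0.108) or 2 (0.122), and the 2-week change of 0.70 passed without quiescent replicate 2 (0.011). Pdlim5 rose by 1.04 ± 0.26 in culture (adjusted p = 0.0183), from 9.78 and 10.66 to 11.31 and 11.21. It lost that call without quiescent replicate 1 (0.0626) or culture replicate 1 (0.0926) or 2 (0.0699), and with reference centring (0.0879). Without quiescent replicate 2 it passed at 2 weeks (0.0203) and at 4 weeks (0.014). Lima1, which slows filament disassembly, had changes of 0.51 ± 0.16 in culture (adjusted p = 0.054) and of 0.61 ± 0.16 at 4 weeks (adjusted p = 0.0529). Both passed with arrays centred on their median (0.0206 and 0.0284), a minimum mean of 5 (0.0394 and 0.0377) or trend and robust eBayes (0.0498 and 0.0467). Neither passed with reference centring.

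Of the 8 tropomyosins, myosins and calponins, 7 rose in culture, 2 at 2 weeks and 4 at 4 weeks. The nonmuscle myosin heavy chains, the motors of stress fibres, were highest after 4 weeks of CCl4. Myh10, myosin IIB, stood at 6.38 and 6.98 when quiescent, 8.28 and 8.19 at 2 weeks, 8.62 and 8.31 at 4 weeks and 7.45 and 7.53 in culture. It rose by 1.55 ± 0.21 at 2 weeks (adjusted p = 0.00498), by 1.79 ± 0.21 at 4 weeks (adjusted p = 0.0014) and by 0.81 ± 0.21 in culture (adjusted p = 0.0206). Its culture call failed without quiescent replicate 1 (adjusted p = 0.106), with culture replicate 1 removed (0.073) or culture replicate 2 (0.106) and with reference centring (0.196), and the 2-week call without 2-week replicate 1 (0.0547). Myh9, myosin IIA, stood at 8.75 and 9.35, 9.72 and 9.60, 10.41 and 10.41, and 9.65 and 9.87. It rose by 1.36 ± 0.20 at 4 weeks (adjusted p = 0.00403) and by 0.71 ± 0.20 in culture (adjusted p = 0.0303), and passed at 2 weeks without quiescent replicate 2 (0.018). Its culture call was lost without quiescent replicate 1 (0.156), culture replicate 1 (0.065) or 2 (0.17), or either 4-week array (0.0548), and with reference centring (0.337). Myl6, the essential light chain of nonmuscle and smooth muscle myosin, rose by 1.74 ± 0.30 in culture (adjusted p = 0.00273), from 8.12 and 9.03 to 10.40 and 10.24. Its adjusted p was 0.0699 at 2 weeks, or 0.0454 with a minimum mean of 5, and 0.0895 at 4 weeks.

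Cald1 and Cnn2, which bind filaments and restrain myosin, were higher in culture than in quiescent cells. Cald1, caldesmon, stood at 9.04 and 9.61 when quiescent, 10.17 and 10.04 at 2 weeks, 10.49 and 10.50 at 4 weeks and 10.87 and 10.86 in culture, and rose by 1.54 ± 0.19 in culture (adjusted p = 0.000412) and by 1.17 ± 0.19 at 4 weeks (adjusted p = 0.00623). At 2 weeks its change of 0.78 ± 0.19 had an adjusted p of 0.0509. It passed with arrays centred on their median (0.0459), a minimum mean of 5 (0.0354), averaged probe sets (0.0498) or trend and robust eBayes (0.0265). With quantile or reference scaling it did not pass. The 4-week call of Cald1 was lost without either 4-week array. Cnn2, calponin 2, stood at 6.69 and 8.61, 8.94 and 8.79, 9.24 and 9.68, and 10.51 and 10.46. It rose by 2.84 ± 0.49 in culture, or 7.15-fold (adjusted p = 0.00293), while its change of 1.81 ± 0.49 at 4 weeks had an adjusted p of 0.0557. At 4 weeks it passed with arrays centred on their median (0.0412) or a minimum mean of 5 (0.0352), but not with quantile or reference scaling. Without quiescent replicate 2 it passed at 2 weeks (0.000632) and 4 weeks (0.000135). Cnn3 did not pass, with a change in culture of 0.43 (95% interval 0.02 to 0.83).

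Tropomyosins coat filaments and set which motors bind. Tpm4 stood at 9.70 and 9.98 when quiescent, 10.81 and 10.40 at 2 weeks, 10.86 and 10.76 at 4 weeks and 10.86 and 10.75 in culture. Both culture arrays lay within the range of the CCl4 arrays. It rose by 0.97 ± 0.18 in culture (adjusted p = 0.00379), by 0.77 ± 0.18 at 2 weeks (adjusted p = 0.0443) and by 0.97 ± 0.18 at 4 weeks (adjusted p = 0.0107). The 2-week call failed without quiescent replicate 1 (adjusted p = 0.171), 2-week replicate 1 (0.251), either culture array (0.0746) or either 4-week array (0.0852), with reference centring (0.0806), with only the compared groups in the fit (0.152), and when its probe sets were averaged (0.0539), and the 4-week call without quiescent replicate 1 (0.0505) or 4-week replicate 1 (0.0925) or 2 (0.0633). Tpm3 rose by 0.64 ± 0.18 in culture (adjusted p = 0.032), from 8.54 and 8.59 to 9.15 and 9.27. That call was lost without quiescent replicate 1 (0.104) or 2 (0.0734) or culture replicate 1 (0.085) or 2 (0.157), with reference centring (0.484), and when its dimmer probe set, at -0.48, was averaged in (0.821).

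The 7 factors of actin turnover all rose in culture, by 0.47 to 1.07, whereas 0 of 7 passed at 2 weeks and 1 at 4 weeks. At an unadjusted p under 0.05, 3 were higher at 2 weeks and 5 at 4 weeks, where 1760 and 2107 of all 22180 genes were higher. Arpc5, a subunit of the Arp2/3 complex that nucleates branched filaments, stood at 9.13 and 9.10 when quiescent, 9.47 and 9.34 at 2 weeks, 9.48 and 9.47 at 4 weeks and 10.11 and 10.25 in culture, a rise of 1.07 ± 0.13 (adjusted p = 0.000516). Capzb, a subunit of the protein that caps filament ends, stood at 8.86 and 9.01, 9.20 and 9.20, 9.57 and 9.47, and 10.01 and 9.88. It rose by 1.01 ± 0.14 in culture (adjusted p = 0.000764) and by 0.59 ± 0.14 at 4 weeks (adjusted p = 0.0311). The 4-week call was lost without quiescent replicate 1 (0.129) or 4-week replicate 1 (0.19) or 2 (0.115), and with reference centring (0.0817). Cap1, which recycles monomers, rose by 0.99 ± 0.15 in culture (adjusted p = 0.00127), from 9.61 and 9.92 to 10.73 and 10.79.

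The other turnover factors moved less. Pfn1, profilin 1, which feeds monomers to growing filaments, rose by 0.68 ± 0.15 in culture (adjusted p = 0.0105), from 10.63 and 10.95 to 11.45 and 11.49. It lost the call without quiescent replicate 1 (0.0629) or culture replicate 2 (0.062), and passed at 4 weeks without quiescent replicate 2 (0.0446). Arpc2, another Arp2/3 subunit, rose by 0.51 ± 0.13 (adjusted p = 0.0231), and lost the call without quiescent replicate 1 (0.106) or culture replicate 1 (0.109) or 2 (0.0818). Cfl1, cofilin 1, which severs filaments, rose by 0.51 ± 0.16 (adjusted p = 0.0475), a call that held in 1 of the 8 fits with an array left out, that without quiescent replicate 2, and otherwise had an adjusted p of 0.0676 to 0.253. Tmsb10, thymosin beta 10, which sequesters monomers, rose by 0.47 ± 0.13 (adjusted p = 0.028), and lost the call without quiescent replicate 1 (0.119) or 2 (0.051) or culture replicate 1 (0.126) or 2 (0.0905). With reference centring these 4 genes did not pass in culture, at 0.19, 0.03, 0.02 and -0.01. At 4 weeks the change of Arpc2 was 0.50 ± 0.13 (adjusted p = 0.0571). It passed there with arrays centred on their median (0.0432), a minimum mean of 5 (0.0435) or trend and robust eBayes (0.0167). Pfn1, at 0.48 ± 0.15 (adjusted p = 0.0904), passed there with trend and robust eBayes (0.0355). Neither passed there with quantile or reference scaling.

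Between 2 and 4 weeks of CCl4, 0 of the 40 genes passed in either direction with limma, where 0.0271% of all genes were higher and 0.0586% lower, and 0 passed in any alternative fit. At an unadjusted p under 0.05, 8 genes were higher at 4 weeks and 0 lower, where 855 of all genes were higher and 955 lower. The estimate lay above 0 for 34 genes, with a median of 0.26 against -0.01 for all genes. Both 4-week arrays lay above both 2-week arrays for 28 genes and below them for 1, against 18.8% and 20.2% of all genes. The largest differences were those of Srf at 0.77 ± 0.23 (adjusted p = 0.355), Myh9 at 0.75 ± 0.20 (0.277), Fhl3 at 0.68 ± 0.19 (0.319) and Fhl2 at 0.62 ± 0.14 (0.192). The macrophage markers were lower at 4 weeks for 4 of 12, with list medians of 7.65 and 7.85 at 2 weeks and 6.03 and 6.16 at 4 weeks.

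Culture and CCl4 were compared to ask how far cells activated on plastic resemble cells activated in the liver. Culture was higher than the mean of both CCl4 times for 14 of the 40 genes and lower for 1, where 12.6% of all genes were higher and 8.72% lower, and the median difference was 0.34 against 0.00. Of the 11410 genes with a mean of at least 5, tested alone, 2585 were higher and 1960 lower. The largest were Flnc, 1.99 ± 0.13 (3.97-fold, adjusted p = 1.19e-05), Fhl1, 1.41 ± 0.15 (adjusted p = 0.000219), Pdlim1, 1.30 ± 0.14 (adjusted p = 0.000266), and Actn1, 1.05 ± 0.23 (adjusted p = 0.0109). Myh10 was the gene lower in culture (log2 difference -0.86 ± 0.18, adjusted p = 0.00837). Cnn2 had a difference of 1.32 ± 0.42 that did not pass (adjusted p = 0.0581). It passed when only the culture and CCl4 arrays were fitted (0.000341), as did Myl6 (0.0243) and Pdlim5 (0.0238). The quiescent arrays enter this comparison only through the shared estimate of the spread. The median difference was 0.31 without culture replicate 1 and 0.35 without culture replicate 2. Fewer genes were called in these 2 fits, in the set and over all genes. Centring on reference genes, which moved the median of all genes by -0.35, gave 5 higher and 7 lower, the latter being Actn4, Pxn, Vasp, Fhl2, Myh9, Myh10 and Srf. Under that setting 1456 of all genes were higher and 9381 lower, and 22 of the 40 estimates lay below 0.

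Single calls of this comparison were lost as follows. With reference centring, Palld, Zyx, Lpp, Pdlim7, Fhl3, Tpm3, Cald1, Capzb and Cap1 did not pass (limma, adjusted p = 0.0632 to 0.285). Pdlim7 (0.0773) and Tpm3 (0.0787) were also lost with quantile normalization over the genes tested. When probe sets were averaged, Lpp (0.226) and Tpm3 (0.721) were lost. Actn1 was lost without culture replicate 1 (adjusted p = 0.0616) or 2 (0.0852), Lpp likewise (0.0593 and 0.069), Myh10 likewise (0.068 and 0.0525) and Cap1 likewise (0.0668 and 0.1). Palld and Fhl3 were lost without culture replicate 2 (0.0844 and 0.104) and Capzb without culture replicate 1 (0.0726). Zyx was lost without either culture array (0.073 and 0.126) or 4-week replicate 1 (0.0581). Tpm3 was lost without either culture array (0.101 and 0.192), 2-week replicate 2 (0.0776) or 4-week replicate 1 (0.0884). Pdlim7 and Cald1 were each lost without any of the 6 arrays compared, at 0.0598 to 0.221 and 0.0621 to 0.161. Flnc, Pdlim1, Fhl1 and Arpc5 kept the call whichever array was left out, and also with reference centring.

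For other genes the interval limits how far culture could differ from the mean of both CCl4 times, not from each time. The difference was 0.01 for Fhl2 (95% interval -0.26 to 0.28), 0.10 for Tpm4 (-0.25 to 0.44), 0.06 for Arpc2 (-0.20 to 0.33) and 0.10 for Flna (-0.52 to 0.72). For Fhl2 the culture mean of 9.84 lay between those at 2 weeks, 9.52, and 4 weeks, 10.14, and the arrays of these groups did not overlap. Fhl2 changed sign with reference centring, to -0.34 (adjusted p = 0.0431), close to the shift of all genes. Cultured cells had low stellate, hepatocyte and endothelial markers at once: 9 of 12 stellate, 8 of 12 hepatocyte and 9 of 12 sinusoidal endothelial markers were lower in culture than after CCl4, and the part of these differences in the result was not tested.

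**Figure D4:**
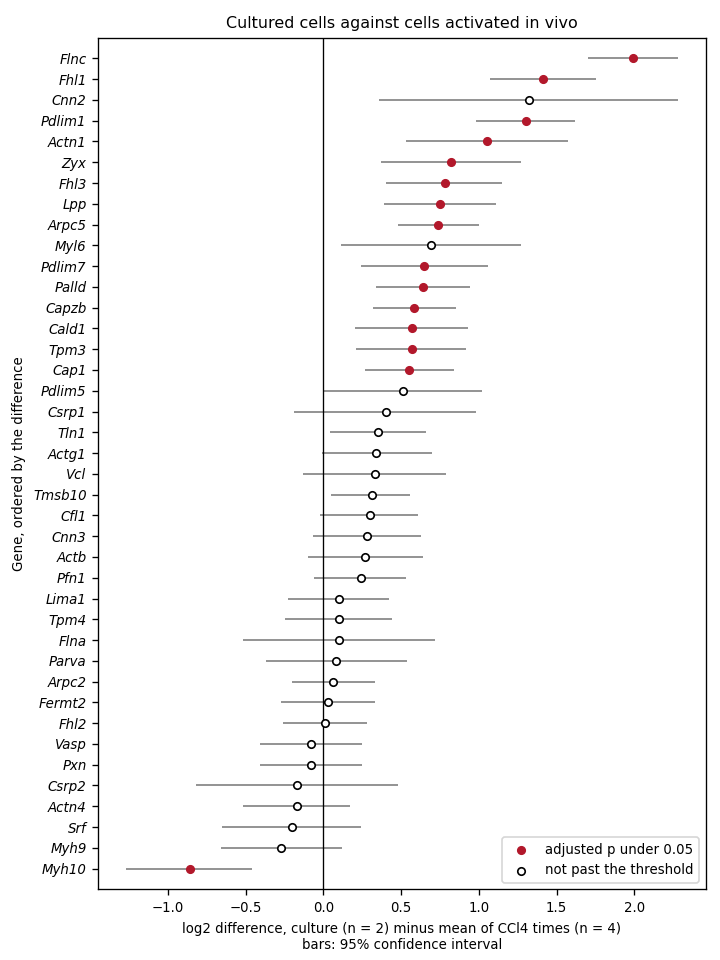
Difference between cultured cells (2 arrays) and the mean of both CCl4 times (4 arrays) for each of the 40 genes on the log2 scale, with the 95% confidence interval as a bar and filled points where the adjusted p was under 0.05. Flnc, Fhl1 and Pdlim1 have filled points above 1 and Myh10 has the one filled point below 0; with arrays centred on reference genes, 5 genes were higher and 7 lower.

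**Figure D5:**
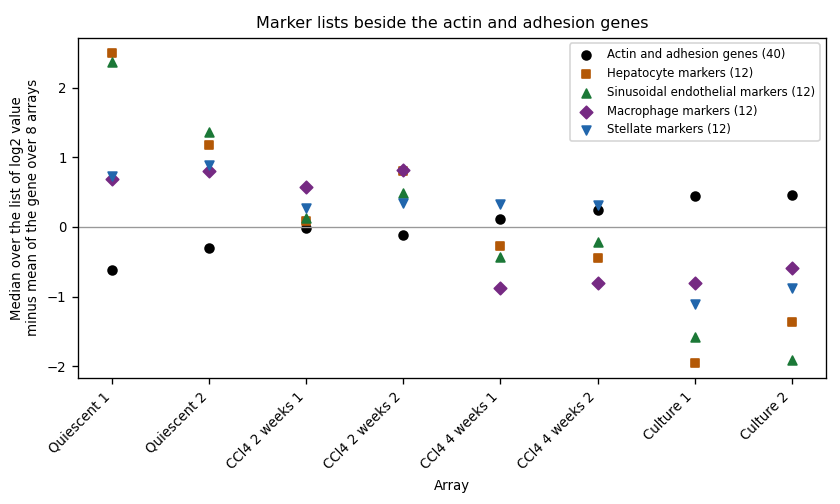
Median over each list of the log2 value minus the gene's mean over the 8 arrays, for the 40 actin and adhesion genes and for markers of 4 liver cell types, array by array. The actin and adhesion genes go from -0.62 on quiescent replicate 1 to 0.46 on culture replicate 2, while hepatocyte markers go from 2.50 to -1.37 and sinusoidal endothelial markers from 2.37 to -1.91 on the same arrays.

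Other genes of actin, adhesion and myosin regulation moved both ways. Of 102 such genes outside the set, 91 were measured: 33 rose and 16 fell in culture (median change 0.31), 5 rose and 4 fell at 2 weeks, and 12 rose and 3 fell at 4 weeks. Of all genes, 12.9% rose and 10.3% fell in culture, 2.34% and 2.43% at 2 weeks, and 4.04% and 4.67% at 4 weeks. Between 2 and 4 weeks 0 of the 91 passed, with 4 at an unadjusted p under 0.05, or 4.4% against 8.16% of all genes. The largest rises in culture were Anln, anillin, a scaffold of the cleavage furrow, by 3.21 ± 0.20 (adjusted p = 9.68e-06), the formin Diaph3 by 2.89 ± 0.33 (adjusted p = 0.000284), and Enah, a relative of Vasp that speeds filament growth, by 2.63 ± 0.20 (adjusted p = 3.22e-05). The largest falls were of the formin Fmnl2 (log2 change -2.54 ± 0.31, adjusted p = 0.000394), the adhesion adaptor Tns2 (-2.46 ± 0.15, adjusted p = 7.98e-06) and Eps8, an actin capping and bundling protein (-1.93 ± 0.14, adjusted p = 1.94e-05). At 4 weeks the largest rises were those of Enah, 2.01 ± 0.20 (adjusted p = 0.000733), Pdlim3, 1.47 ± 0.26 (adjusted p = 0.0105), and Nexn, nexilin, a filament-binding protein, 1.23 ± 0.22 (adjusted p = 0.0111). Talin 2, Tln2, fell there (-1.10 ± 0.21, adjusted p = 0.0134), as did Tns2 (-1.0 ± 0.15, adjusted p = 0.00404) and Anln (-0.86 ± 0.20, adjusted p = 0.0314). Tln2 also had a change of -1.82 ± 0.21 in culture (adjusted p = 0.000299), where Tln1 rose.

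Some genes often used as references changed too. Of 10 measured, Gapdh, Hprt, Rplp0 and Pgk1 rose in culture, by 0.95, 1.18, 1.36 and 1.99, and Polr2a fell by 0.67. At each CCl4 time Rplp0 and Pgk1 rose, by 0.77 and 0.58 at 2 weeks and by 0.69 and 0.83 at 4 weeks. The median change of the 10 reference genes in culture was 0.10, with a range from -0.67 to 1.99, against 0.89 for the 40 actin and adhesion genes. Reference centring used their mean, not their median. The large rises of Gapdh, Hprt, Rplp0 and Pgk1 therefore enter the shift of -0.47 in culture under that setting.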

How the data were processed

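RNA of 8 primary stellate cell samples was measured on Affymetrix arrays, after preamplification per the labels' protocols. The deposited values are log2 and were made by the authors with Affymetrix Expression Console and its RMA method, according to the submitters' processing notes. Versions are not given in the sources used here. Since RMA gives all arrays the same distribution, a shift common to most genes is not visible. The values were used as deposited, with array medians of 4.63 to 4.72 over 41345 probe sets. Of these, 23521 had 1 gene symbol, 1814 several and 16010 none here. For 1082 genes with several probe sets, 5 of them among the 40, the one with the highest mean was used. Symbols were checked against RefSeq (193 gene IDs had no row, 0 symbols changed).

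Groups were compared by limma 3.58.1 under R 4.3.3 (lmFit and eBayes, neither trend nor robust, two-sided) in a single fit of 8 arrays and 4 groups, with 4 residual and 4.75 prior degrees of freedom. The Benjamini-Hochberg adjustment ran over 22180 genes in each of 5 comparisons, and a gene was called under 0.05. Errors are SEs from that fit, with 2 arrays per group, which limits the precision. The script was tested on simulated data. Alternatives covered the scaling, a minimum mean of 5 log2 units, the averaging of probe sets, the eBayes options, the arrays in the fit, a replicate block and leaving out each array. Named were all members, of the other actin genes the 3 largest rises and falls past the threshold with the arrays apart, all SRF cofactors, and reference genes past the threshold. Members and lists were chosen with earlier results of these data known. Promoter sequences are RefSeq's, with none used for Actb, Csrp2, Parva and Pxn.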

Additional observations from a re-analysis of the deposited data

Results flagged for a closer look

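For 15 genes, the changes from quiescent cells in culture and after CCl4 differed by the test of the difference itself (limma, adjusted p under 0.05, culture minus the mean of both CCl4 times on the log2 scale). Among crosslinkers these were Flnc at 1.99, Actn1 at 1.05 and Palld at 0.64. Among adhesion plaque proteins they were Zyx at 0.82 and Lpp at 0.75. The LIM domain genes were Fhl1 at 1.41, Pdlim1 at 1.30, Fhl3 at 0.78 and Pdlim7 at 0.65. The contractile genes were Tpm3 at 0.57, Cald1 at 0.57 and Myh10 at -0.86, the 1 gene lower in culture. The turnover genes were Arpc5 at 0.74, Capzb at 0.58 and Cap1 at 0.55. With arrays centred on reference genes, 6 of the 15 kept the call, and the dimmer probe set of Tpm3 went the other way, at -0.37. Against quiescent cells, 3 of the 15 had a positive change in culture and a negative estimate at a CCl4 time, none of which passed. Fhl1 stood at 1.19 in culture, -0.38 at 2 weeks and -0.06 at 4 weeks, Pdlim1 at 1.23, -0.01 and -0.13, and Zyx at 0.79, -0.25 and 0.19.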

How the results depend on the processing

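Over the 40 genes, 5 comparisons and all alternatives, 2975 results stayed on the same side of the threshold, 152 lost the call and 71 gained it. The sign of the estimate changed in 81 results, 26 of them with arrays centred on reference genes, of which 15 were in culture against CCl4. In 2 of those, 1 of the values compared had passed the test: Fhl2, culture against CCl4, at -0.34, and Tmsb10, culture against quiescent, at -0.01. Under that setting 19 genes were higher and 3 lower in culture than in quiescent cells, 5 were higher and 7 lower in culture than after CCl4, and of the other actin genes 21 rose in culture. For all genes it gave 1354 higher and 11952 lower in culture, where the setting as reported gave 2869 and 2276. At 2 weeks of CCl4, 11 genes were higher when only genes with a mean of at least 5 were tested and 3 when only the arrays compared were fitted, which leaves 2 residual degrees of freedom. The cause of the other changes was not tested. Leaving out 1 array gave 19 to 32 genes higher in culture, 2 to 18 at 2 weeks, 8 to 23 at 4 weeks, 5 to 17 higher and 0 to 1 lower in culture than after CCl4, and 25 to 32 of the other actin genes higher in culture. Between the CCl4 times 0 passed in each, and against quiescent cells 0 were lower in each. With an array left out, the lone array of its group was assumed to vary like the others. Counts over all genes changed in these fits as well, so the ranges do not describe this set alone.

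With the replicate number as a replicate block, 31 genes were higher in culture, 7 at 2 weeks, 15 at 4 weeks and 0 between the CCl4 times, and 15 were higher and 1 lower in culture than after CCl4. At 2 weeks, Tpm4 lost its call under the block (adjusted p = 0.0637) and Csrp1 gained one (0.0493). Same-numbered arrays had correlations of deviations from -0.042 to 0.074 over all genes. Values near 0 cannot exclude a small shared effect, so whether the numbers pair samples across groups is not known here. Signal over background does not limit these genes, except that the quiescent Flnc arrays, at 4.97 and 5.20, lie near the 95th percentile of 4.76 of the receptor genes.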

Other observations

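Typical smooth muscle genes, which share SRF as a regulator, had larger median changes than the actin and adhesion genes. Of 7 such markers (Acta2, Myh11, Tagln, Cnn1, Actg2, Des and Lmod1), 6 rose in culture and 6 at each CCl4 time, with median changes of 3.84, 1.98 and 1.98, and 5 were higher in culture than after CCl4. Their list median was 5.82 and 5.75 log2 units on the quiescent arrays, 7.88 and 7.60 at 2 weeks, 7.10 and 8.38 at 4 weeks and 11.51 and 11.31 in culture. Des, which is also a stellate marker, stood at 9.67 and 9.83 in quiescent cells and 9.96 and 9.87 in culture.

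Markers of portal fibroblasts and mesothelium, other sources of contractile cells, had 3 of 7 higher at 2 weeks, 2 at 4 weeks, and 1 higher and 2 lower in culture. Of 9 measured leukocyte markers, 2 rose at 2 weeks and 0 passed at 4 weeks with limma, while 2 fell in culture. At an unadjusted p under 0.05, 7 were higher at 2 weeks, and 1 was higher and 1 lower at 4 weeks. The 5 measured cholangiocyte markers had 1 higher and 1 lower in culture and 0 past the threshold at either CCl4 time (0 at an unadjusted p under 0.05).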
